A study of Glycine max with 2 samples.

Results

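Cytoplasmic male sterility (CMS) is a failure to form functional pollen that is inherited through the mother, and a maintainer line is its fertile partner with the same nuclear parentage. Among the genes that overlapped a differentially methylated region (DMR) between soybean NJCMS5A, which is such a CMS line, and its maintainer NJCMS5B, the transport genes are described here. They are the genes with a DMR (DMGs) that the deposited Gene Ontology (GO) table lists under transport, without those that it also lists for nucleic acid binding and those of the oxidative phosphorylation pathway in the deposited KEGG table. Of 43 genes listed for transport, 12 were left out for the first reason and 1 for the second, which left 30 of the 485 DMGs. They were joined to 48 of the 3527 DMRs in 49 pairs of DMR and gene. Glyma.16G195100 and Glyma.17G240200 shared a DMR, and 10 of the 30 genes shared one with any other gene. Over all DMGs, 600 DMRs made 739 pairs, so shared DMRs were not particular to the transport genes. The share of all DMGs with a shared DMR was not counted.

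NJCMS5B is Wandou28, and NJCMS5A came from a series of backcrosses to it that began with the CMS line NJCMS1A. Neither line received a treatment. Flower buds of different sizes were taken at full bloom from plants of each line and pooled, so a level is a mean over bud stages and floral tissues. From each pool 1 library was made for whole-genome bisulfite sequencing, in which unmethylated cytosines are converted and read as thymine, so that the methylation level gives the percentage of calls in a DMR that remained cytosine.

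Cell transport is carried out by several kinds of machinery. Pumps such as the vacuolar (V-type) proton ATPase spend ATP to move protons into vacuoles and endomembrane compartments, and symporters and metal transporters move solutes through membranes. Translocases and docking complexes bring proteins into mitochondria, peroxisomes and the endoplasmic reticulum, and tethering complexes such as the exocyst bring secretory vesicles to the plasma membrane, a process that pollen tubes of Arabidopsis depend on. In plants, cytosine methylation is found in promoters, transposable elements and gene bodies. A region named beside a DMR (promoter, UTR, exon or intron) is one that the DMR overlapped by any length, and a level is that of the whole DMR, which can reach beyond it.

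The sequences that the sources used here give for these genes are the study's own primers. For Glyma.16G081800 they amplify bisulfite-converted DNA at Chr16:8808752-8809095, a stretch of 344 bp that lies wholly inside the gene's DMR. It begins 544 bp after the start of the DMR and ends 83 bp before the end. Levels of this stretch alone were not analysed here, and the level given for the gene is that of its whole DMR. Coordinates are those of the deposited files, whose gene names carry the suffix of build Wm82.a2.v1, and the strand is not given in the sources used here. The pairs are shown because their letters carry the conversion: the forward primers hold 0 c and the reverse primers 0 g. No letter is set in capitals, since no single base is compared.
Glyma.16G081800 outer forward: tgatgggtaagttgttgtgtttgatga
Glyma.16G081800 outer reverse: ctttcctacattttcaattacttcaaatca
Glyma.16G081800 nested forward: ttttttgttgataaagtgtaggaga
Glyma.16G081800 nested reverse: aaccaaaatctactcattatcattacct

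A further pair of the study's primers amplifies the transcript of Glyma.16G195100 by quantitative RT-PCR. It is printed because the gene's DMR lies on another sequence than the gene, so the primers mark the gene itself and not the DMR.
Glyma.16G195100 forward: tgggctgtgcaagagtgg
Glyma.16G195100 reverse: agcgcttcatcaaacaagcc

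Each of the 48 DMRs came from a caller that had already compared these libraries, so the size of the differences is a description and not an independent result. None of the 3527 DMRs had a difference under 10 percentage points, a higher level under 2 times the lower one, or a mean depth under 5 calls per cytosine in either library. The calls recovered for the transport genes numbered 270724 in NJCMS5A and 262869 in NJCMS5B, over 18294 cytosines. Median depth was 11.8 and 11.6 calls per cytosine, against 11.7 and 11.3 in the 600 DMRs annotated to any gene. All 48 DMRs passed a two-sided Fisher's exact test on these calls (Benjamini-Hochberg adjusted p under 0.05), and so did 100% of all DMRs. In a second version the calls of each DMR were scaled down to 1 per cytosine, at the level over all its calls. Cytosines read more often thus still weighed more in that level. With calls so scaled, 46 of the 48 (95.8%) passed, against 92.5% of the DMRs annotated to genes and 82.8% of all DMRs. With 1 library for each line the tests compare libraries, differences between the lines and differences between the libraries cannot be told apart, and intervals (95%, Wilson) cover counting error only.

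In the DMRs of the transport genes the level was lower in NJCMS5A (hypo-methylated) in 33 and higher (hyper-methylated) in 15. The hypo-methylated share was 68.8%, against 64.8% of the 600 DMRs annotated to genes. Among the genes, 17 of 30 (56.7%) had only hypo-methylated DMRs, where the share over all DMGs was 57.9%. Only hyper-methylated DMRs were found in 5 genes (16.7%), against 18.1% of DMGs, and DMRs of both directions in 8 (26.7%), against 23.9%. Each of these shares was near its background.

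The difference between the libraries ranged from 10.03 to 28.4 percentage points in size, with a median of 13.5, and the median over the DMRs annotated to genes was 13.2. Of the 48 DMRs, 10 (20.8%) differed by at least 20 points, against 16% of the DMRs annotated to genes. Another 19 DMRs (39.6%) differed by under 11 points, close to the smallest difference that the DMR table holds, against 30.2% of the DMRs annotated to genes and 14.3% of all DMRs. In the hypo-methylated DMRs the median level was 4.89% in NJCMS5A and 18.9% in NJCMS5B. In the hyper-methylated DMRs it was 18.8% and 4.45%, so the lower level was similar whichever library it was in. In 11 DMRs the library with the lower level was under 1% methylated, which was NJCMS5A in 8 and NJCMS5B in 3. This share of 22.9% was near the 22.8% of the DMRs annotated to genes, where it was NJCMS5A in 88 and NJCMS5B in 49. Levels were not corrected for unconverted cytosines, and the study reports a lower conversion rate for NJCMS5B than for NJCMS5A. The part of unconverted cytosines in these lowest levels was not tested.

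**Figure D1:**
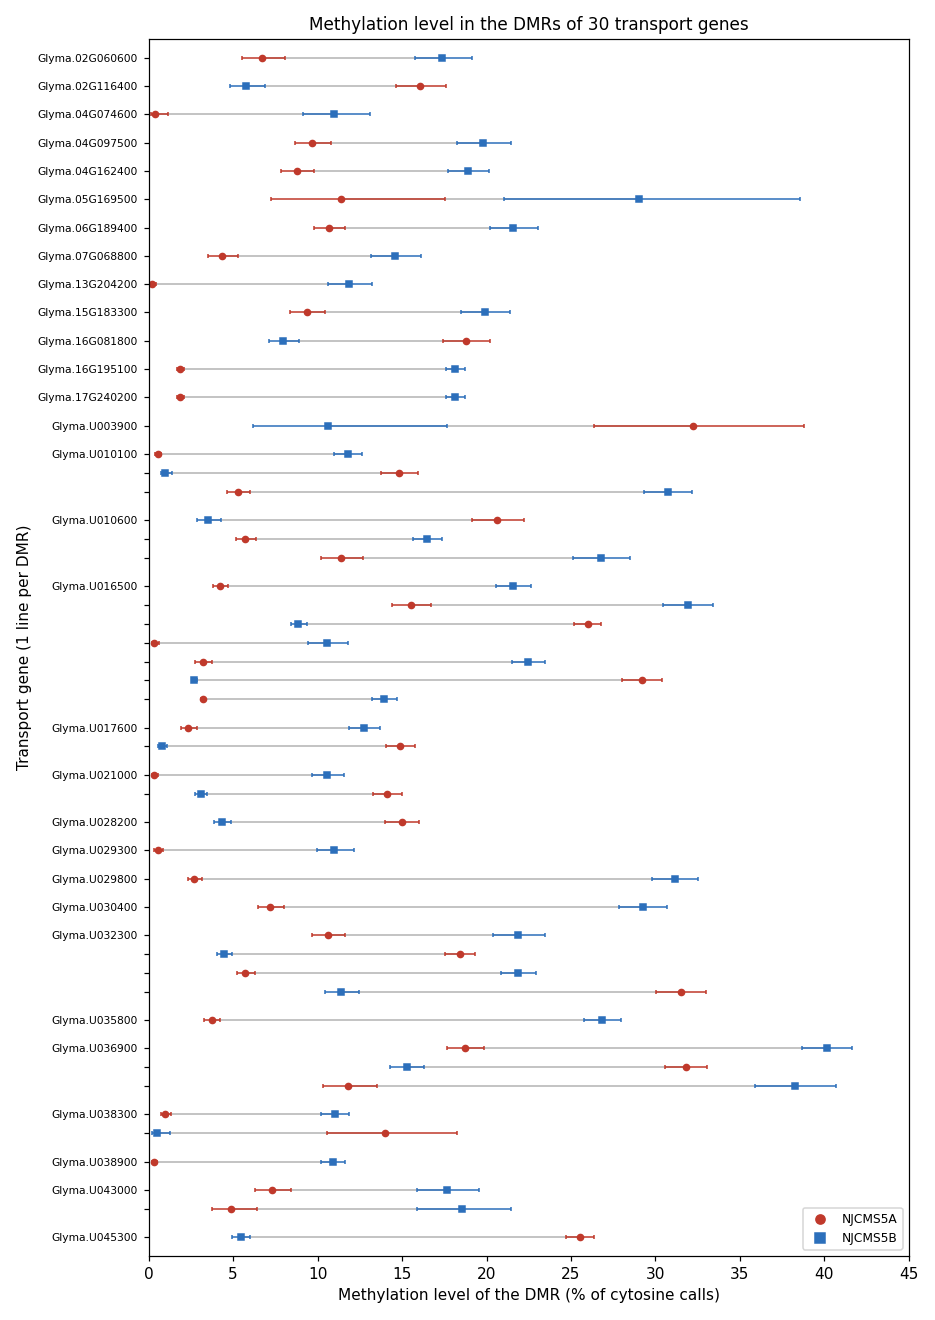
Methylation level (% of cytosine calls, horizontal axis) of each DMR of the 30 transport genes (vertical axis, 1 line per DMR, 49 lines) in NJCMS5A (circles) and NJCMS5B (squares), with 95% Wilson intervals. Intervals of the libraries do not overlap in any DMR, and they are widest in Glyma.05G169500 and Glyma.U003900, which rest on 16 and 13 cytosines.

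Proton transport included the largest difference. The GO table lists 6 of the 30 genes for it, of which 4 had only hypo-methylated DMRs, 1 had only a hyper-methylated DMR and 1 had both. The largest difference of any transport gene was in a DMR of 3886 bp annotated to the promoter of Glyma.U029800, a gene listed for the membrane-embedded V0 domain of the V-type ATPase. Over 491 cytosines on scaffold_28 from 190142 to 194027, the calls were methylated to 2.69% (2.32 to 3.13) in NJCMS5A against 31.1% (29.8 to 32.5) for NJCMS5B. Glyma.U035800, listed for the catalytic V1 domain, had a DMR that covered the gene from promoter to 3′UTR on scaffold_345 from 5173 to 10271. There, 3.72% (3.26 to 4.24) of the calls were methylated in NJCMS5A and 26.9% (25.8 to 27.9) in NJCMS5B. Glyma.07G039100 was annotated to the same DMR. Both annotated domains of this pump thus had a member that was hypo-methylated by over 20 points.

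Smaller or mixed differences were found in the other genes listed for the V-type ATPase complex, whose further GO terms name different functions. The promoter of Glyma.02G060600 (Chr02, 5494117 to 5495066), which is also listed for the mitotic spindle checkpoint, had 6.70% (5.54 to 8.08) in NJCMS5A against 17.4% (15.7 to 19.2) for NJCMS5B. The promoter of Glyma.U029300 (scaffold_28, 124741 to 125719), also listed for the cilium, had 0.526% (0.329 to 0.841) and 10.995% (9.95 to 12.1). Its DMR was shared with the neighbouring Glyma.U029400. The remaining gene, Glyma.U016500, had DMRs of both directions and is described with the other genes of that kind.

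Glyma.U045300, listed for the F(o) part of the mitochondrial ATP synthase, through which protons flow back to drive ATP synthesis, differed the other way. Its DMR on scaffold_99 from 8954 to 13739 covered the promoter, 5′UTR, exon and intron, and held 694 cytosines. The level was 25.5% (24.7 to 26.4) in NJCMS5A against 5.43% (4.93 to 5.99) for NJCMS5B, a difference of 20.1 points. It was the only hyper-methylated gene of the proton transport list. Over all DMGs, proton transport was listed for 9 genes, 7 of them with only hypo-methylated DMRs, and the V-type ATPase complex for 8, 7 of them with only hypo-methylated DMRs and none with only hyper-methylated ones.

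Metal ion transport held 5 genes, and 4 of them had DMRs of both directions. Over all DMGs the term held 7 genes, 3 with only hypo-methylated DMRs, 0 with only hyper-methylated DMRs and 4 with both. The transport gene with a single direction was Glyma.U043000, listed for ferrous iron transport, with a pair of neighbouring DMRs on scaffold_76. The first (65302 to 66279) had 7.28% (6.28 to 8.43) in NJCMS5A against 17.6% (15.9 to 19.6) for NJCMS5B. The second (66324 to 67193) had 4.89% (3.74 to 6.38) and 18.5% (15.9 to 21.5), so both lay lower in NJCMS5A. The other genes listed for metals were Glyma.U010100 and Glyma.U010600 (ferrous iron), Glyma.U017600 (nickel and cobalt) and Glyma.U038300 (potassium, and squalene monooxygenase, an enzyme of sterol synthesis).

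Carbohydrate and organic acid carriers were few and differed by little more than 10 points. Glyma.02G116400, listed for carbohydrate transmembrane transport, was hyper-methylated at its start (promoter, 5′UTR, exon and intron; Chr02, 11342162 to 11342763), with 16.1% (14.6 to 17.6) in NJCMS5A against 5.77% (4.81 to 6.91) for NJCMS5B. Glyma.12G126900 was annotated to the same DMR. Glyma.04G097500, a sugar and proton symporter by its GO term, was hypo-methylated in its exon and 3′UTR (Chr04, 8824090 to 8825083), with 9.65% (8.64 to 10.8) against 19.8% (18.2 to 21.5). Glyma.15G183300, listed as a sodium and dicarboxylate symporter, had 9.36% (8.38 to 10.4) against 19.9% (18.5 to 21.4) in a DMR on Chr04 from 3897562 to 3898559. The name of this gene places it on another chromosome than the DMR, to which it was joined by its 3′UTR alone. Glyma.04G048400 was annotated to that DMR as well.

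Further membrane transport genes had no narrower substrate in the GO table. Glyma.U030400, on scaffold_28 from 267341 to 270140, had the next largest hypo-methylation after the V-type ATPase genes among genes with a single DMR, with 7.18% (6.44 to 8.002) in NJCMS5A against 29.2% (27.8 to 30.7) for NJCMS5B over promoter, exon and intron. Glyma.06G189400 had 10.7% (9.80 to 11.6) against 21.6% (20.2 to 23.0) in its exon and intron (Chr06, 16575724 to 16576919). Without any narrower transport term were Glyma.05G169500, an integral membrane protein, and Glyma.U028200, which is listed for calmodulin-dependent protein kinase activity. The promoter DMR of Glyma.U028200 (scaffold_27, 348607 to 350596) was hyper-methylated, with 15.0% (14.0 to 16) against 4.34% (3.84 to 4.89).

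The DMR of Glyma.05G169500, in its promoter on Chr05 from 35992502 to 35993280, rested on 16 cytosines. Methylated calls numbered 17 of 149 in NJCMS5A and 29 of 100 in NJCMS5B, or 11.4% (7.25 to 17.5) and 29.0% (21.0 to 38.5). Fisher's exact test gave an adjusted p of 7.65e-04 on all calls and 0.413 with calls scaled to 1 per cytosine. It was therefore 1 of the 2 DMRs that did not pass the second test.

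The other was that of Glyma.U003900, which is listed for the type II protein secretion system, a machinery known from bacteria. It held 13 cytosines in an intron on scaffold_128 from 23991 to 24063, with 69 of 214 calls methylated in NJCMS5A and 12 of 113 in NJCMS5B. The levels were 32.2% (26.3 to 38.8) and 10.6% (6.18 to 17.6), and the adjusted p of Fisher's exact test was 1.32e-05 on all calls and 0.342 with each cytosine counted once. Both of these large differences thus come from few cytosines.

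Protein transport was listed for 8 genes, 5 with only hypo-methylated DMRs, 2 with only hyper-methylated DMRs and 1 with both. Over all DMGs it was listed for 10 genes, with counts of 5, 3 and 2. Glyma.04G074600, listed as an integral membrane protein of the endoplasmic reticulum, had 3 methylated calls of 780 in NJCMS5A, or 0.385% (0.131 to 1.12), and 105 of 959 in NJCMS5B, or 10.9% (9.13 to 13.1). This DMR on Chr04 from 6209847 to 6210589, over promoter and exon, was shared with Glyma.04G074700. Glyma.U038900, listed for the signal peptidase complex that cleaves signal peptides from proteins entering the secretory pathway, had 16 methylated calls of 5675, or 0.282% (0.174 to 0.458), against 803 of 7377, or 10.9% (10.2 to 11.6). Its DMR overlapped exon, intron and both UTRs on scaffold_44 from 112172 to 114030. In both genes the DMR was nearly free of methylation in NJCMS5A.

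Glyma.13G204200, listed for the Golgi transport complex, which tethers vesicles within the Golgi apparatus, had the lowest level of all the transport genes. In its DMR 4 of 2394 calls were methylated in NJCMS5A, or 0.167% (0.0650 to 0.429), against 279 of 2351 in NJCMS5B, or 11.9% (10.6 to 13.2). The DMR lies on scaffold_21 from 3381124 to 3382113, while the gene is named for chromosome 13 and was joined to it by its 5′UTR alone. Glyma.09G088900, Glyma.19G232600 and Glyma.U020700 were annotated to the same DMR. Glyma.07G068800, listed for the docking step of protein import into the peroxisome matrix, was hypo-methylated within an intron (Chr07, 6216293 to 6217592), with 4.31% (3.51 to 5.28) against 14.6% (13.2 to 16.1).

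Glyma.16G081800 is listed for lipase activity, metabolism of the GPI anchor and intracellular protein transport, and the study annotates it as a lipase. Its DMR on Chr16 from 8808208 to 8809178 was hyper-methylated by its mean level. The primer region printed above is a part of this DMR, and the level of that part alone was not analysed here. Methylated calls were 561 of 2988 in NJCMS5A, or 18.8% (17.4 to 20.2), and 297 of 3729 in NJCMS5B, or 7.96% (7.14 to 8.88). With Glyma.02G116400 it was one of 2 hyper-methylated genes among the 10 transport genes that had a DMR on a chromosome.

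Vesicle-mediated transport was listed for 4 genes, 3 with only hypo-methylated DMRs and 1 with both directions. Over all DMGs the term held 7 genes, 3 with only hypo-methylated DMRs, 2 with only hyper-methylated DMRs and 2 with both. The exocyst was represented by Glyma.04G162400, Glyma.17G240200 and Glyma.U032300. Glyma.04G162400 had 8.75% (7.84 to 9.75) in NJCMS5A against 18.9% (17.7 to 20.2) for NJCMS5B over exon, intron and 3′UTR (Chr04, 40238353 to 40239315). Glyma.17G240200 shared its DMR with Glyma.16G195100, which is listed for activation of Rab GTPases, the switches of vesicle traffic, and which the study annotates for mitochondrial mRNA modification. That DMR was the longest of the 48, with 1366 cytosines over 6088 bp on scaffold_44 from 85447 to 91534. Its level was 1.86% (1.66 to 2.08) in NJCMS5A against 18.1% (17.6 to 18.7) for NJCMS5B. Both genes are named for other chromosomes and were joined to it by their 5′UTR alone, so 1 measurement on a scaffold stands for both. Glyma.18G199200, Glyma.U018500 and Glyma.U038600 were annotated to it as well.

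**Figure D2:**
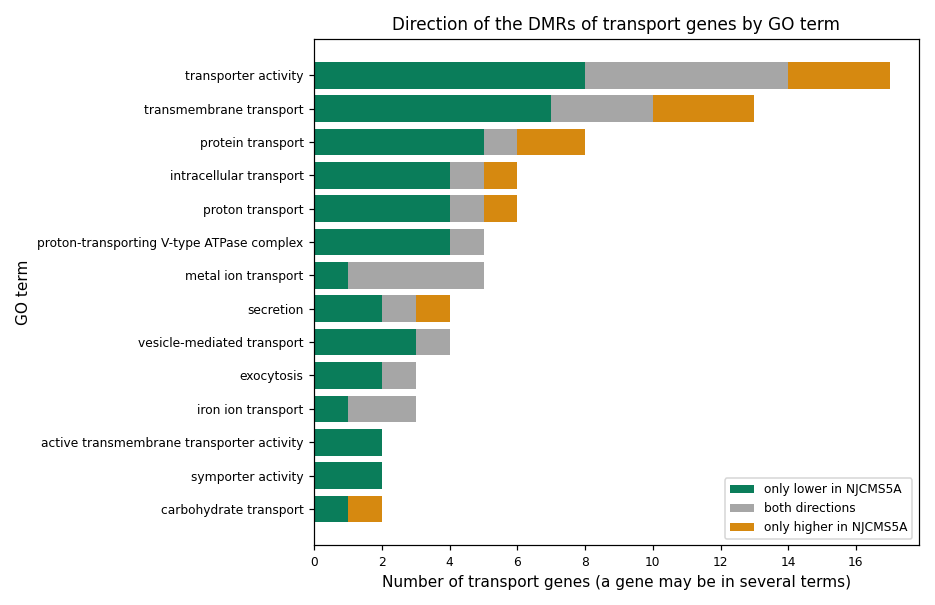
Number of transport genes (horizontal axis) with only lower, only higher or both directions of DMRs in NJCMS5A, for each GO term (vertical axis) that holds at least 2 of them. Transporter activity held 17 genes and transmembrane transport 13, the V-type ATPase complex had no gene with only hyper-methylated DMRs, and 4 of the 5 metal ion transport genes had both directions. A gene may be in several terms.

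Of the 9 transport genes with more than 1 DMR, 8 had both directions. Over all DMGs with more than 1 DMR it was 116 of 149, or 77.9%. Glyma.U016500 had the most, with 7 DMRs that spanned 24494 bp of scaffold_21. It is listed for the nuclear pore, syntaxin binding and the V-type ATPase complex, and belongs to the RNA transport pathway. In coordinate order the levels in NJCMS5A were 4.24, 15.5, 25.98, 0.316, 3.19, 29.2 and 3.21%, and in NJCMS5B they were 21.6, 31.9, 8.86, 10.6, 22.5, 2.69 and 13.9%. The third and the sixth were hyper-methylated and the others hypo-methylated. Pooled over the DMRs the levels were 7.69% (7.53 to 7.86) and 8.66% (8.48 to 8.84), so the pooled levels were close although single DMRs differed by up to 26.5 points. Most of the pooled calls came from 1 DMR of high depth and low level in each library. This was the seventh in NJCMS5A (63311 calls) and the sixth in NJCMS5B (52369 calls). The pooled difference was -0.97 points, and it was -4.33 points when the DMRs were averaged without weights.

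The sixth and seventh DMRs of Glyma.U016500, both in its promoter and separated by 2 bp, also differed in depth. The sixth (2629084 to 2630379) had a depth of 14.9 in NJCMS5A and 143 in NJCMS5B, and the seventh (2630382 to 2632075) had 106 and 13.6. In both, the library with the high depth had the lower level, with 2.69% (2.56 to 2.83) in NJCMS5B and 3.21% (3.08 to 3.35) in NJCMS5A. The part of depth in these level differences was not tested. They were the only DMRs of the transport genes with a depth over 50, and without them the gene still had DMRs of both directions. The seventh was also annotated to Glyma.U016600.

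Glyma.U032300, an exocyst gene that is also in the insulin signaling pathway of the KEGG table, alternated along its 4 DMRs on scaffold_31. The first (208370 to 209840) had 10.6% (9.68 to 11.6) in NJCMS5A against 21.9% (20.4 to 23.5) for NJCMS5B, and the second (209844 to 211939) had 18.4% (17.6 to 19.3) and 4.45% (4.02 to 4.93). The third (213843 to 216541) had 5.71% (5.20 to 6.27) and 21.9% (20.9 to 23.0), and the fourth (216551 to 217842) had 31.5% (30.05 to 33.0) and 11.4% (10.4 to 12.5). Each DMR thus differed in the direction opposite to the one before it, and 3 and 9 bp separated the first pair and the last pair. The caller works in sliding windows, and its part in placing these borders was not tested. All of them lay in introns, and the third also covered an exon.

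Glyma.U010100 and Glyma.U010600, on scaffold_21, had 3 DMRs each. Both are listed for ferrous iron transport, but the study annotates the first as a translation initiation factor and the second as a P-loop nucleotide hydrolase. In Glyma.U010100, an intron DMR (195642 to 197631) had 0.522% (0.374 to 0.729) in NJCMS5A against 11.8% (10.96 to 12.6) for NJCMS5B. The next (197839 to 199234) had 14.8% (13.7 to 15.96) and 0.971% (0.696 to 1.35). The last, over promoter, exon and intron (199239 to 201737), had 5.28% (4.62 to 6.02) and 30.7% (29.3 to 32.2). A stretch almost without methylation in one library was thus followed by a stretch almost without it in the other. The last DMR was also annotated to Glyma.U010200.

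In Glyma.U010600 the exon, intron and 3′UTR (297433 to 299421) were hyper-methylated, at 20.6% (19.2 to 22.2) against 3.49% (2.85 to 4.27). The start of the gene (302127 to 304222) was hypo-methylated, with 5.72% (5.18 to 6.32) against 16.5% (15.6 to 17.4). So was the promoter DMR next to it (304335 to 305623), with 11.4% (10.2 to 12.7) against 26.8% (25.1 to 28.5). The direction therefore changed once, between the far end of the gene and its start.

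Glyma.U036900 is listed for transporter activity, but its rarest GO terms are those of the transcription factor TFIIA complex and of transcription initiation. It had 3 DMRs on scaffold_376, 1 of which had the highest level of a transport gene's DMR in NJCMS5B. The first DMR (558 to 3355) had 18.7% (17.7 to 19.8) in NJCMS5A against 40.2% (38.7 to 41.7) for NJCMS5B. From 5058 to 6656 it was 31.8% (30.6 to 33.1) and 15.3% (14.3 to 16.3), and in the promoter from 7275 to 8456 it was 11.8% (10.3 to 13.5) and 38.3% (35.9 to 40.7). The middle DMR was hyper-methylated and the outer ones hypo-methylated.

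In the remaining genes of both directions a pair of DMRs lay side by side. Glyma.U017600 had 2.32% (1.88 to 2.87) against 12.7% (11.8 to 13.7) in a DMR over the gene that also overlapped its promoter (scaffold_21, 2934387 to 2936276). In a DMR annotated to the promoter alone (2936443 to 2938474) it had 14.9% (14.1 to 15.7) against 0.774% (0.567 to 1.06). Glyma.U021000 is listed for the translocase of the outer mitochondrial membrane, which takes in proteins bound for the matrix. It also changed direction, between a DMR over promoter, 5′UTR, exon and intron and a DMR annotated to the promoter alone. Its levels were 0.304% (0.170 to 0.544) against 10.6% (9.69 to 11.5) from 3423526 to 3425080 of scaffold_21, and 14.1% (13.3 to 15.0) against 3.06% (2.74 to 3.43) from 3425740 to 3427709. Glyma.U038300 had 0.987% (0.728 to 1.34) against 11.02% (10.2 to 11.9) on scaffold_44 from 63549 to 64834. In a short exon DMR (65038 to 65136) of 46 cytosines it had 43 methylated calls of 308 in NJCMS5A and 4 of 797 in NJCMS5B, or 14.0% (10.5 to 18.3) and 0.502% (0.195 to 1.28).

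**Figure D3:**
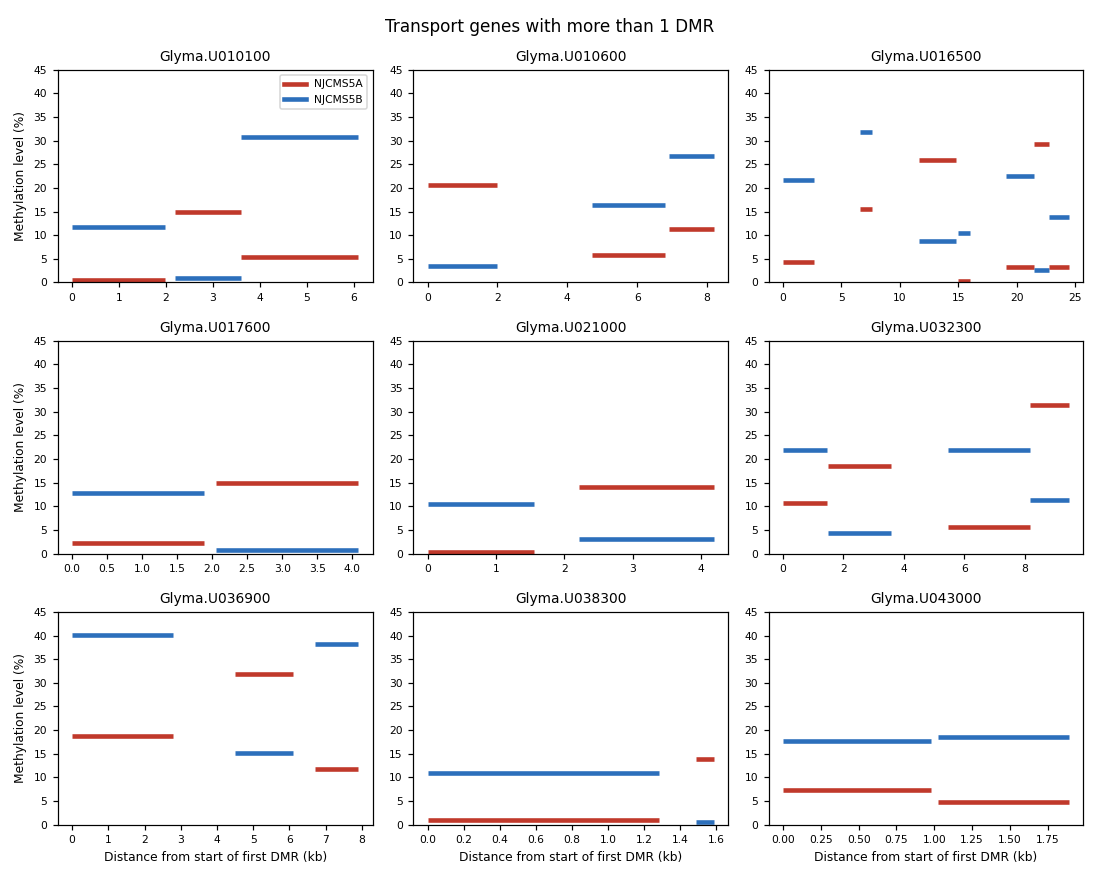
Methylation level (%, vertical axis) of each DMR of the 9 transport genes with more than 1 DMR, drawn from its start to its end against the distance from the start of the gene's first DMR (kb, horizontal axis) in NJCMS5A and NJCMS5B. The order of the libraries changes along each gene except Glyma.U043000, where both DMRs were lower in NJCMS5A.

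Between consecutive DMRs of the same transport gene, the direction changed in 15 of 19 cases. Where the gap was at most 250 bp it changed in 9 of 11. Over all DMRs on the scaffolds, neighbours with a gap of at most 250 bp had opposite directions in 434 of 653 cases, or 66.5%, so a change of direction between close neighbours was common in the whole table as well. How the caller joined its windows into DMRs was not examined here, and its part in these changes of direction was not tested. DMRs of 1 gene or scaffold are not independent, and the counts are given as a description.

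All genes with both directions lay on unplaced scaffolds, as did most of the DMRs. On chromosomes there were 10 of the 48 DMRs (20.8%), against 19.2% of the DMRs annotated to genes. Of the 10, 8 were hypo-methylated and 2 hyper-methylated, with a median difference of 10.6 points. The other 38 were on scaffolds, 25 hypo-methylated (65.8%) and 13 hyper-methylated, with a median of 14.8 points. The DMRs annotated to genes had a like split. On chromosomes 76.5% of them were hypo-methylated, with a median of 10.8 points, and on scaffolds 62.1%, with a median of 14.2 points. A DMR on a chromosome was found in 10 of 30 transport genes, against 29.1% of DMGs. Scaffold_21 alone carried 6 of the genes and 18 of the DMRs. Within 10 kb of a transport gene's DMRs there was no other DMR for any of the 10 genes with a DMR on a chromosome. Of the 20 genes with a DMR on a scaffold, 18 had at least 1, with up to 8 around Glyma.U010600. This was counted for the transport genes alone, so no share over all DMGs can be set beside it. Of all 3527 DMRs, only 311 (8.82%) lay on chromosomes. The names of 4 genes (13.3%) place them on another sequence than the DMR, which was so for 14.4% of DMGs, each time by a UTR alone. They are Glyma.13G204200, Glyma.15G183300, Glyma.16G195100 and Glyma.17G240200, and all 4 were counted as hypo-methylated.

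Counting each gene in every functional region that a DMR overlapped, 18 transport genes (60.0%) had a DMR in the promoter, against 68.0% of DMGs. An exon was overlapped in 19 (63.3%), against 57.5%, and an intron in 19 as well, against 52.4%. The 5′UTR was overlapped in 12 genes (40%), against 38.1% of DMGs. Of these 12 genes, 3 were joined to a DMR on another sequence. The 3′UTR was overlapped in 7 genes (23.3%), against 25.98% of DMGs. Promoter DMRs were hypo-methylated in 14 genes and hyper-methylated in 8, against 235 and 137 of the 485 DMGs. Exon DMRs were so in 16 and 7, against 239 and 87 of the DMGs. The libraries were read at like depth in most of these regions. The ratio of the depth in NJCMS5A to that in NJCMS5B had a median of 1.02, against 1.03 in the DMRs annotated to genes. It was beyond 1.5-fold in 5 of the 48 DMRs, against 72 of the 600 annotated to genes. In 25 of the 48 DMRs the library with the lower level was the deeper one, against 327 of the 600.

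**Figure D4:**
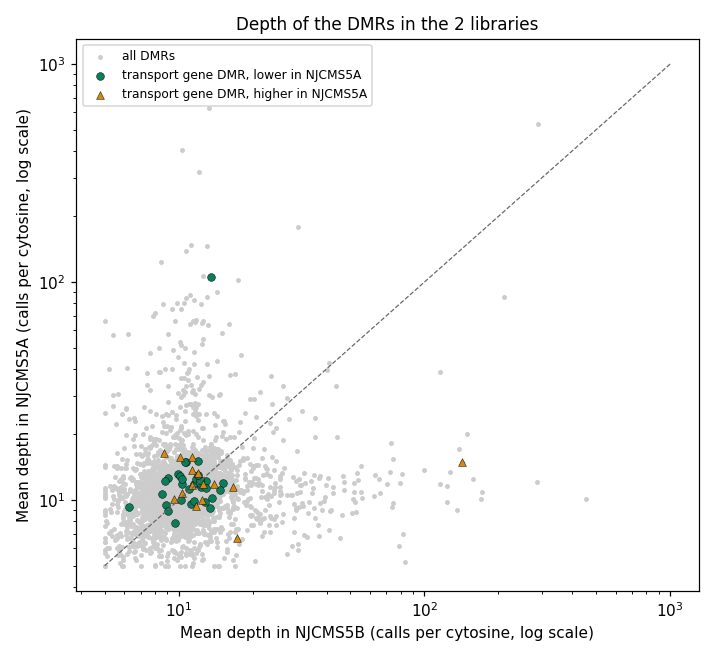
Mean depth (calls per cytosine, log scales) of each DMR in NJCMS5A (vertical axis) and NJCMS5B (horizontal axis), for all 3527 DMRs (grey) and for the 48 DMRs of transport genes (circles, lower in NJCMS5A; triangles, higher). The dashed line marks equal depth, and the transport gene DMRs farthest from it are the neighbouring promoter DMRs of Glyma.U016500, at 143 in NJCMS5B and 106 in NJCMS5A.

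Genes close to the list are given as counts only. The 13 genes listed for transport but left out by the rule had 6 with only hypo-methylated DMRs, 3 with only hyper-methylated DMRs and 4 with both. The GO term transporter activity was listed for 24 DMGs, of which 17 are among the transport genes described here, and 13 of the 24 had only hypo-methylated DMRs, 3 only hyper-methylated DMRs and 8 both. RNA levels of these genes were not analysed here.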

How the data were processed

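Whole-genome bisulfite sequencing of pooled flower buds was compared between 2 libraries, NJCMS5A and NJCMS5B. The authors aligned the reads with Bismark (version 0.12.5) and called DMRs with swDMR in sliding windows by a Fisher test with a false discovery rate limit. In the deposited DMR table, the methylation level is a fraction of methylated cytosine calls, not split by sequence context and not corrected for unconverted cytosines. The coverage of a DMR was deposited by the authors as mean depth per cytosine, not normalized between libraries. A promoter is the stretch just upstream of a gene, as the authors annotated it. The deposited p-values, ratios and differences of levels, and the p-values of GO and KEGG terms, hold the authors' own comparisons and were not used. Per-sample columns outside the 2 libraries numbered 0.

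Level times depth times number of cytosines was whole (within 0.01) in every DMR and gave the methylated calls. They were compared by Fisher's exact test (two-sided), and p was adjusted by Benjamini-Hochberg over 3527 DMRs, and levels have 95% Wilson intervals. PCR duplicates and calls from 1 read are not independent. Pooled levels of a gene sum the calls of its DMRs. The test was run on simulated calls that were drawn independently of each other. That check therefore does not cover dependent calls or the lack of replicates. Alternatives were a depth of at least 10, a difference of at least 20 points, at least 100 cytosines and chromosomes only. Others were no pairs of gene and DMR on different sequences, all genes listed for transport and calls scaled to 1 per cytosine. Scaled methylated calls were the level times the number of cytosines, rounded. A last alternative, no DMR with a depth over 50, was chosen after seeing the data. Members and lists were chosen with earlier results of these data known. Genes to be named were those with a DMR on a chromosome, those the paper names, the 10 others with the largest difference at 100 cytosines and a depth of 10, the 5 of both directions with the widest gap, and those sharing a DMR. These were 21 genes, and the other 9 were added after their values were seen. None of the 30 was found in the reference gene table, so roles are those of the deposited GO and KEGG tables or the study. Primer sequences are the study's. Python 3.11.15, numpy 2.4.6, scipy 1.17.1, pandas 2.3.3, statsmodels 0.14.6 and matplotlib 3.10.9 were used.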

Additional observations from a re-analysis of the deposited data

How the results depend on the processing

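The counts of transport genes with only hypo-methylated, only hyper-methylated and both directions of DMRs were 17, 5 and 8, and each stayed within 1.5 times these values with at least 100 cytosines, without pairs of gene and DMR on different sequences and without DMRs of a depth over 50. In each setting a gene was counted by the DMRs that it kept, so a gene of both directions could move to a single one. Requiring 10 calls per cytosine in each library left 31 DMRs past the Fisher's exact test and 4 genes of both directions. A difference of at least 20 points left 10 DMRs, with a median difference of 22.6 points. It left 5 genes with only hypo-methylated DMRs, 4 with only hyper-methylated DMRs and 0 of both directions. Among the 5 were Glyma.U010100 and Glyma.U036900, and among the 4 were Glyma.U016500 and Glyma.U032300. These had both directions before, and their DMRs of the other direction differed by under 20 points. Chromosomes alone left 10 DMRs, with 8, 2 and 0 genes. With all genes listed for transport, 8 genes had only hyper-methylated DMRs. The fewer genes and DMRs follow from the stricter choice itself. With calls scaled to 1 per cytosine, 46 of 48 DMRs passed, the exceptions being those of Glyma.05G169500 and Glyma.U003900. The pooled difference of Glyma.U038300 reversed from -7.80 to 1.71 points when its DMRs were averaged without weights, since a DMR of 46 cytosines then counts as much as one of 373. No paired analysis was possible because each line has 1 library. For the same reason no result has a replicate check.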
